A study of Mus musculus with 21 samples.

Results

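E113K against E71K is the comparison, among the pairs of lysine mutants of histone H2B studied here, in which the libraries were least alike (Pearson's r of 0.846 to 0.887 over genes). Both groups are C3H/10T1/2 cells, a mouse embryonic line of mesenchymal progenitors that can take up cartilage, fat and bone fates in culture. The E113K cells expressed H2B with lysine in place of the glutamate at E113, the E71K cells H2B with lysine in place of the glutamate at E71, and WT cells, used as background, wild-type H2B. RNA of 3 libraries per group was compared. Of the 24091 genes listed, 11922 had a mean of at least 1 TPM (transcripts per 1000000, an abundance corrected for gene length) over the 6 libraries of E113K and E71K, and these are the genes described. Just outside that limit lay Cxcl10 (mean 0.997 TPM) and Lyrm7 (0.998 TPM), and just inside it Kank4os, which rounds to 1 TPM. The series also holds E76K and the glutamine mutants E71Q, E76Q and E113Q, 21 libraries in 7 groups, and E71Q and E113Q are used below as a second pair at the same residues. The labels name no independent lines or clones for a genotype, so a difference between cell lines cannot be told apart from one between substitutions. They do not state how the mutant H2B was introduced, and reads of a mutant H2B cannot be told from those of the endogenous genes.

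Histone H2B pairs with H2A, and the resulting dimers bind the H3-H4 tetramer to form the protein core around which nucleosomal DNA is wrapped. The E113 glutamate of H2B is one of the residues of the acidic patch, a docking surface on the face of the nucleosome for chromatin regulators such as RCC1, remodelling enzymes and the tail of histone H4 from neighbouring nucleosomes. The E71 glutamate lies in the histone fold of H2B. Lysine reverses the charge of glutamate, whereas glutamine only removes it.

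The mesenchymal nature of the line showed in high Vim (4750 to 4840 TPM in E113K, 4360 to 5430 TPM in E71K) and by Prrx1, Twist1 and Pdgfra in all 6 libraries, while Epcam, Krt18 and Cd3e were listed at 0 in all 6. Not every marker followed. Nt5e did not exceed 0.0404 TPM in any of the 6 libraries, and Lepr and Mcam stayed below 1 TPM. Eng was at 1.12 to 1.45 TPM in E71K, where Thy1 was near 0, and both are described below. Among epithelial markers, Krt14 reached 503 TPM in E71K. Pearson's r of log2(TPM + 1) over genes was 0.965 to 0.967 within E113K and 0.928 to 0.964 within E71K. Within E71K, replicates 1 and 2 were alike (0.964), whereas replicate 3 stood apart from both (0.928 and 0.934). The median SD over genes was 0.0844 in E113K, against 0.197 in E71K, on the log2(TPM + 1) scale. One locus annotated as the microRNA Mir6236 took 2.19% to 2.91% of the TPM sum in E113K, against 3.86%, 30.6% and 2.35% in E71K, so all values below are TPM restated to the full sum outside that locus. TPM keeps no read total, and the depth of the libraries is therefore unknown. The labels give no batch, the design text calls the libraries biological replicates without saying whether each mutant was made anew for each, and the p-values measure the spread between these libraries only.

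Most genes separated the mutants. Of 11921 genes tested, 6929 (58.1%) differed at an adjusted p below 0.05 (limma on log2(TPM + 1), Benjamini-Hochberg adjustment), 3230 of them higher (27.1%) and 3699 lower (31%) in E113K. At least a 2-fold difference was reached by 2031 genes (17%), of which 936 were higher (7.85%) and 1095 lower (9.19%), 570 genes reached 4-fold and 72 reached 16-fold. The values of the 3 E113K and 3 E71K libraries did not overlap for 7233 genes (60.7%). The median log2 fold change was -0.02 and the share of called genes that were higher was 46.6%; with TPM as deposited the median was 0.14 and the share 60.3%, so the balance of rises against falls depends on the scale. For comparison, 4524 genes differed between E76K and E71K and 5463 between E113K and E76K, with 1027 and 1269 of at least 2-fold. These counts are over the same genes, chosen by their level in E113K and E71K, which leaves out genes expressed in E76K alone. E113K and E71K were also chosen as the least alike pair of lysine mutants, so their larger counts are not a separate finding. Every fold change given is a difference on the log2(TPM + 1) scale and is smaller than the true ratio for genes at low levels.

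**Figure D1:**
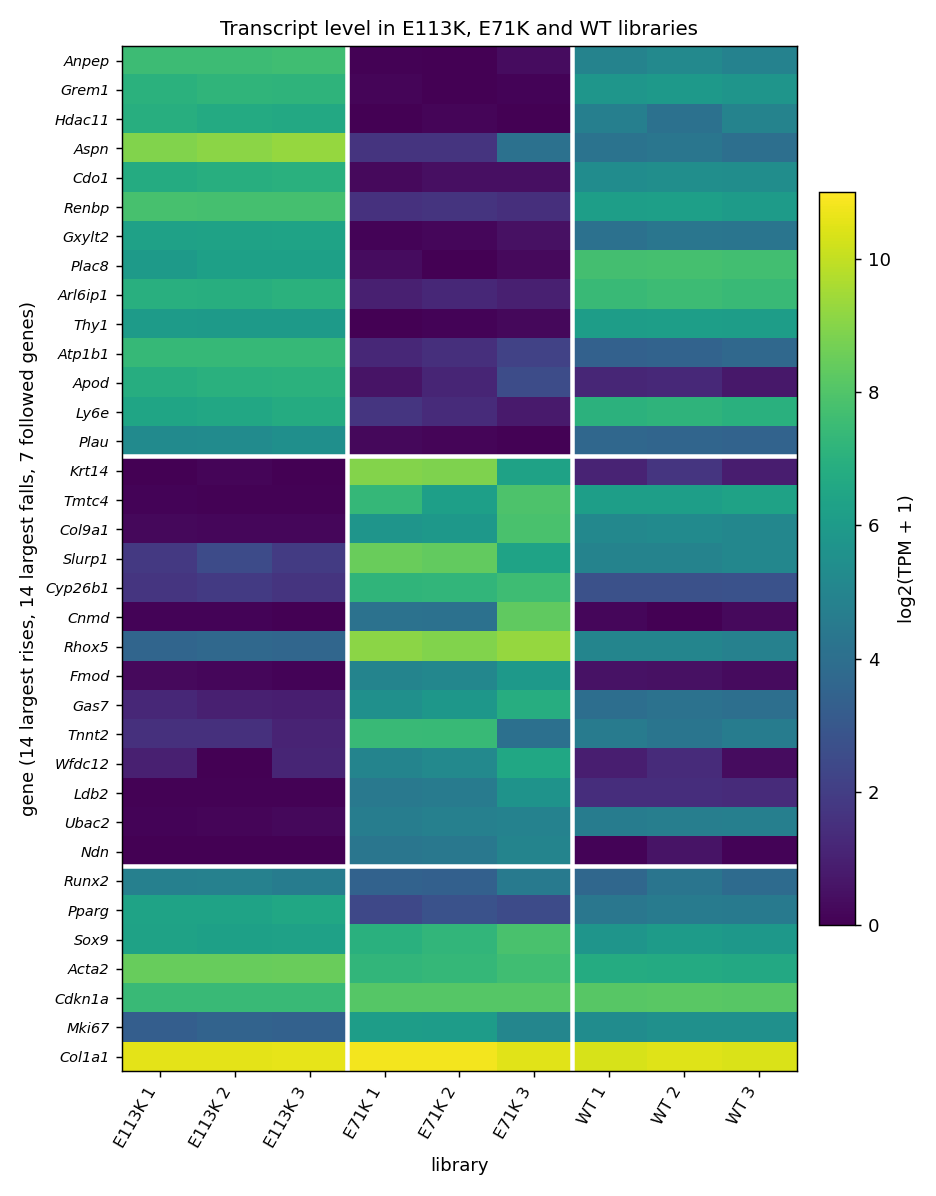
Transcript levels as log2(TPM + 1) (colour) of 35 genes (rows) in the 3 E113K, 3 E71K and 3 WT libraries (columns); the upper 14 genes rose most, the middle 14 fell most and the lower 7 are differentiation, contractile and cell-cycle genes. The upper 28 genes were chosen among those without overlap between the E113K and E71K libraries. E71K replicate 3 differs from its mates at Krt14, Cnmd and Tnnt2.

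The 14 genes that rose most were far lower in E71K, several of them close to 0 TPM. Anpep, the membrane alanyl aminopeptidase CD13 carried by many mesenchymal cells, stood at 183, 186 and 199 TPM in E113K, against 0.0386, 0 and 0.294 TPM in E71K, with a WT mean of 30.9 TPM (log2 fold change 7.43 ± 0.18 (SE), adjusted p = 1.56e-14). Grem1, a secreted antagonist of bone morphogenetic proteins (BMPs), had 129, 146 and 140 TPM in E113K and 0.0968, 0 and 0.0669 TPM in E71K (7.04 ± 0.40, adjusted p = 3.8e-10). Both genes were thus silent or nearly so in every E71K library, with WT between the mutants. Thy1, the surface antigen CD90 by which mesenchymal stromal cells are commonly defined, was at 64.3, 61.9 and 63.0 TPM in E113K, against 0, 0.0776 and 0.188 TPM in E71K. Its WT mean was 69.6 TPM, so here the level in E71K and not that in E113K lay far from WT. The remaining genes of this kind were Hdac11, a class IV histone deacetylase (log2 fold change 6.72), Aspn (6.63), which codes for asporin, Cdo1 (6.50), the cysteine dioxygenase, Renbp (6.18), Gxylt2 (6.06), Plac8 (5.95), Arl6ip1 (5.90), Atp1b1 (5.74), Apod (5.52), Ly6e (5.34) and Plau (5.19), the urokinase plasminogen activator. Leaving out E71K replicate 3 moved Aspn to 7.44.

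Among the genes that fell most, keratinocyte and cartilage products stood beside a retinoic acid hydroxylase and a homeobox gene of the reproductive tract. Krt14, a keratin of basal keratinocytes, was at 0, 0.108 and 0 TPM in E113K, against 503, 461 and 81.0 TPM in E71K (log2 fold change -8.01 ± 0.83, adjusted p = 5.55e-07). Slurp1, a secreted protein of skin, had 2.57, 4.77 and 2.82 TPM in E113K and 357, 326 and 83.3 TPM in E71K. For both genes E71K replicate 3 was the lowest of its group but still above every E113K library, and the WT means were 1.4 and 30.5 TPM. The summed level of 17 epithelial markers was 6.17 to 6.59 TPM in E113K and 98.5 to 530 TPM in E71K; Krt14 and Krt15 made up most of the sum in E71K, whereas Epcam, Cldn4 and Krt18 were at 0 and Krt8 did not exceed 0.286 TPM in any of the 6 libraries. Krt5, Krt17 and Trp63 of the same list did not follow Krt14. Krt5 did not exceed 0.139 TPM and Krt17 did not exceed 0.103 TPM in any of the 6 libraries. Trp63 was at 4.34, 5.04 and 4.36 TPM in E113K, against 4.37, 4.71 and 2.83 TPM in E71K. The part of epithelial cells in the differences was not tested. Krt13 and Krt16, keratins that lie with Krt14 and Krt15 on chromosome 11 and were singled out after their values were seen, followed the same direction (log2 fold changes -3.01 and -3.57), Krt16 being listed at 0 in every E113K library. Col9a1, a chain of cartilage collagen IX, was at 0.175, 0.132 and 0.156 TPM in E113K, against 51.9, 57.5 and 230 TPM in E71K (-6.28 ± 0.49). Cyp26b1, which breaks down retinoic acid, was at 2.27, 2.70 and 2.12 TPM in E113K, against 145, 151 and 189 TPM in E71K (-5.59 ± 0.30). Rhox5, a homeobox gene of the X chromosome known for its expression in the reproductive tract, had 11.1, 12.3 and 11.5 TPM in E113K and 551, 482 and 621 TPM in E71K, with a WT mean of 29.9 TPM. E71K, and not E113K, lay farther from WT for Krt14, Cyp26b1 and Rhox5. The other large falls were Tmtc4 (-7.05), Cnmd (-5.45), Fmod (-5.14), Gas7 (-5.01), Tnnt2 (-4.94), Wfdc12 (-4.88), Ldb2 (-4.84), Ubac2 (-4.62) and Ndn (-4.56), the last of them listed at 0 in all E113K libraries. Cnmd, chondromodulin, rested in part on one library: it was at 16.8 and 16 TPM in E71K replicates 1 and 2 and at 317 TPM in replicate 3, and its log2 fold change was -4.05 without replicate 3.

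Some genes behaved almost as switches. A mean of at least 10 TPM in E113K went with a mean below 1 TPM in E71K for 77 genes, and the reverse held for 89; without small RNAs, predicted genes and RIKEN clones the numbers were 48 and 51. The examples that follow were picked after their values were seen. Cd302, a C-type lectin, was at 33.6, 35.5 and 37.3 TPM in E113K and listed at 0 in all E71K libraries, where Tuba4a and Tceal1 were also listed at 0. Notch3, a Notch receptor of mural cells, was at 23.6, 25.5 and 25.9 TPM in E113K, against 0.0524, 0.0599 and 0.0242 TPM in E71K (4.64 ± 0.20, adjusted p = 1.87e-11). Hgf, the hepatocyte growth factor, had 37.8, 38.2 and 43.2 TPM in E113K and 0.304, 0.257 and 0.668 TPM in E71K. A pair of related receptors split between the mutants. Adra1d, the alpha-1D adrenergic receptor, was at 15.2, 16.7 and 14 TPM in E113K and at 0.376, 0.376 and 0.390 TPM in E71K, whereas Adra1b, the alpha-1B receptor, was at 0.270, 0.477 and 0.263 TPM in E113K and at 19.6, 19.2 and 21.4 TPM in E71K. Xist, the RNA that coats the inactive X chromosome, was at 17.5, 23.4 and 24.9 TPM in E113K, against 0.0152, 0.00653 and 0.0105 TPM in E71K, with 10.6 to 14.4 TPM in WT.

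The cell cycle formed the most uniform group of lower genes. Of 38 genes of mitosis and G2/M, 37 fell in E113K and none rose, against a background of 31% lower among all genes tested, with a median log2 fold change of -2.22; of 38 genes of DNA replication and G1/S, 37 fell and 1 rose (median -1.60). Mki67, the nuclear antigen of cycling cells, was at 8.70, 10.3 and 9.53 TPM in E113K, against 68.3, 66.3 and 32.2 TPM in E71K (-2.35 ± 0.37, adjusted p = 4.2e-05), with a WT mean of 42.9 TPM. All E113K values lay below all E71K values, and replicate 3 was the lowest of E71K. Among mitotic genes, the fall of Hmmr, a spindle protein (11.9 against 93.0 TPM on average, -2.78), was followed by those of Foxm1, the transcription factor of the G2/M programme (-2.69), Cenpf (-2.64) and Prc1 (-2.57). Cdc25b was the only mitotic gene that was not called (-0.29). Among replication genes the largest falls were in Cdc6 and Mcm5, which load and form the replicative helicase, Dtl (-2.15) and Pole (-1.93), the catalytic subunit of polymerase epsilon; E2f1 was the one that rose (0.40). Relative to the E71K mean, the library medians of the mitotic list were -2.26, -2.17 and -2.19 in E113K, and 0.38, 0.38 and -0.75 in E71K replicates 1 to 3. Without E71K replicate 3, 38 mitotic and 37 replication genes were lower, with medians of -2.64 and -1.92. In these bulk samples, fewer cycling cells and less transcript per cycling cell cannot be told apart. Cyclin-dependent kinase inhibitors did not share one direction: Cdkn1b (p27) rose to 181 TPM in E113K, against 87.2 TPM in E71K (1.05), while Cdkn1a (p21) fell to 174 TPM, against 272 TPM (-0.64), and Cdkn2c fell (-0.56). Several genes known as p53 targets fell as well, among them Ccng1 (-1.30), Phlda3 (-1.08), Mdm2 (-0.98) and Plk2 (-2.29). In the list that holds them, 1 of 22 rose and 11 fell, a share called (54.5%) near the background of 58.1%; without E71K replicate 3 the numbers were 3 and 12.

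Promoters of cell-cycle genes are known for the CHR element (TTTGAA) together with CCAAT boxes at mitotic genes and for E2F sites (TTTCCCGC or TTTGGCGC) at replication genes. These were searched on both strands of the 250 bases before the start of each gene in RefSeq's mouse assembly GRCm38.p6. TTTGAA stood in 11 of 32 mitotic promoters with a sequence (34.4%), in 16.3% of all 27025 promoters and in 10.7% of those of tested genes. CCAAT stood in 75% of the mitotic promoters, 34.5% of all and 37.9% of those of tested genes, and one of the E2F forms in 7 of 32 replication promoters (21.9%), 1.35% of all and 2.79% of those of tested genes. None of these motifs contains another. Top2a, Cdc6 and Mcm5 are printed as examples from a larger set of list genes that fell and hold the motifs. Their promoters show each match to CHR (Top2a) or to an E2F form (Cdc6 and Mcm5) in capitals. They lie at chr11:99024190-99024439 (minus strand), chr11:98907901-98908150 (plus strand) and chr8:75109259-75109508 (plus strand), and each reads 5′ to 3′ towards the gene.
Top2a promoter: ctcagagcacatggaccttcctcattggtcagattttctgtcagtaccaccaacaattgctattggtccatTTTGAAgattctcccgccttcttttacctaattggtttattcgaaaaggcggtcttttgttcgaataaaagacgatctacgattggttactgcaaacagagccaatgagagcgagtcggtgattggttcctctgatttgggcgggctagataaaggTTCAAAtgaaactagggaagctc
Cdc6 promoter: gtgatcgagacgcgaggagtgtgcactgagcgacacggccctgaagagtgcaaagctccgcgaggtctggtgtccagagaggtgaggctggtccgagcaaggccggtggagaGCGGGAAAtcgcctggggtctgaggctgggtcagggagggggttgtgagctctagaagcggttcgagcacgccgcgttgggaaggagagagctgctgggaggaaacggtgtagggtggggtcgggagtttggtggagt
Mcm5 promoter: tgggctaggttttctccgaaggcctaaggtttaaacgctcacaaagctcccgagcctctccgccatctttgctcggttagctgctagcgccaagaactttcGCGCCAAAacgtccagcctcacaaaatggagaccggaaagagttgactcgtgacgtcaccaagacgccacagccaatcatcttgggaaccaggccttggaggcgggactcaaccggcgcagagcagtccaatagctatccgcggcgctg
Top2a holds TTTGAA once on each strand, and the capitals of Cdc6 and Mcm5 are E2F forms read on the complementary strand. Top2a, the mitotic topoisomerase II, was at 33.8, 34.9 and 33.9 TPM in E113K, against 242, 237 and 127 TPM in E71K (-2.47 ± 0.33, adjusted p = 7.55e-06). Cdc6, the helicase loader, was at 2.24, 2.37 and 2.02 TPM in E113K, against 20.2, 18.6 and 9.32 TPM in E71K (-2.34 ± 0.23). Mcm5, a helicase subunit, was at 14.8, 15.2 and 12.9 TPM in E113K, against 98.7, 95.8 and 41.4 TPM in E71K (-2.29 ± 0.35). No E113K library reached the lowest E71K library for any of these genes.

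Histone genes and their chaperones were mostly lower where they differed. Of 14 replication-dependent H2B genes tested, 6 fell and none rose, with a median of -1.25, and of 35 genes for replication-dependent H2A, H3, H4 and H1, 16 fell and 3 rose (-1.35). These are 42.9% and 54.3% called, against 58.1% of all genes. Hist2h2be, the H2B gene with the highest mean of those that fell, averaged 36.1 TPM in E113K, against 93.3 TPM in E71K, where the lowest library had 61.9 TPM (log2 fold change -1.30 ± 0.20, adjusted p = 3.2e-05). Hist1h2bc, the H2B gene with the highest mean in E113K, was at 70.5 TPM there and 59.3 TPM in E71K and was not called. These counts depended on E71K replicate 2: without it 7 of the 35 fell and the medians were -0.53 for H2B and -0.78 for the others. Relative to the E71K mean, the H2B medians were -0.09, 0.76 and -0.58 in E71K replicates 1 to 3. Those of the other histones were -0.06, 0.94 and -0.83. Replicate 2 is the library in which Mir6236 took 30.6% of the TPM sum, and whether that bears on these counts was not tested. Histone genes are near-identical copies among which reads may have been split, and how non-polyadenylated transcripts were captured is not stated in the labels, so single members are uncertain. Of 11 replication-independent histones, 8 fell and none rose (72.7% called). Those that fell included Cenpa, the centromeric H3 (-2.31), H1fx (-1.83), H2afy2, a macroH2A (-1.45), and H2afz (-1.39). Of 25 chaperones and enzymes of H2B ubiquitination, 15 fell and 3 rose (72% called). On the log2 scale Asf1b, an H3-H4 chaperone, fell by 2.5 and Nap1l1, an H2A-H2B chaperone, by 1.15. Chaf1a, a subunit of the replication-coupled assembly factor, fell by 1.55. The ubiquitin ligase subunit Rnf20 fell by 0.36, while its partner Rnf40 was not called (0.09).

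Genes for remodellers and for proteins that bind the acidic patch showed smaller differences. Of 31 tested, 12 fell and 6 rose, which at 58.1% called equals the background; with TPM as deposited 5 fell and 6 rose, and the median was 0.11 (otherwise -0.06). Hmgn5, a nucleosome-binding protein, fell most (5.16 against 38.0 TPM on average, -2.58), followed by Chd7 (-1.30) and Rcc1 (-1.11), the exchange factor of Ran, which docks on the patch. Il33, a nuclear cytokine that also binds the patch, was at 3.14, 2.80 and 2.34 TPM in E113K, against 0, 0 and 0.122 TPM in E71K (1.85 ± 0.19). Smarca5, the ISWI ATPase (-0.42), and Dot1l, the H3K79 methylase (-0.34), fell by less than 1.5-fold, and Smarca4 (-0.11) and Chd4 (-0.14) were not called. Of 24 genes for Polycomb and DNA methylation, 7 fell and 2 rose, fewer than the background at 37.5% called. Ezh2 (-1.82), Uhrf1 (-1.86), Dnmt1 (-1.28) and Phf19 (-1.92) were among those that fell; the count of rises was 6 without E71K replicate 3.

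**Figure D2:**
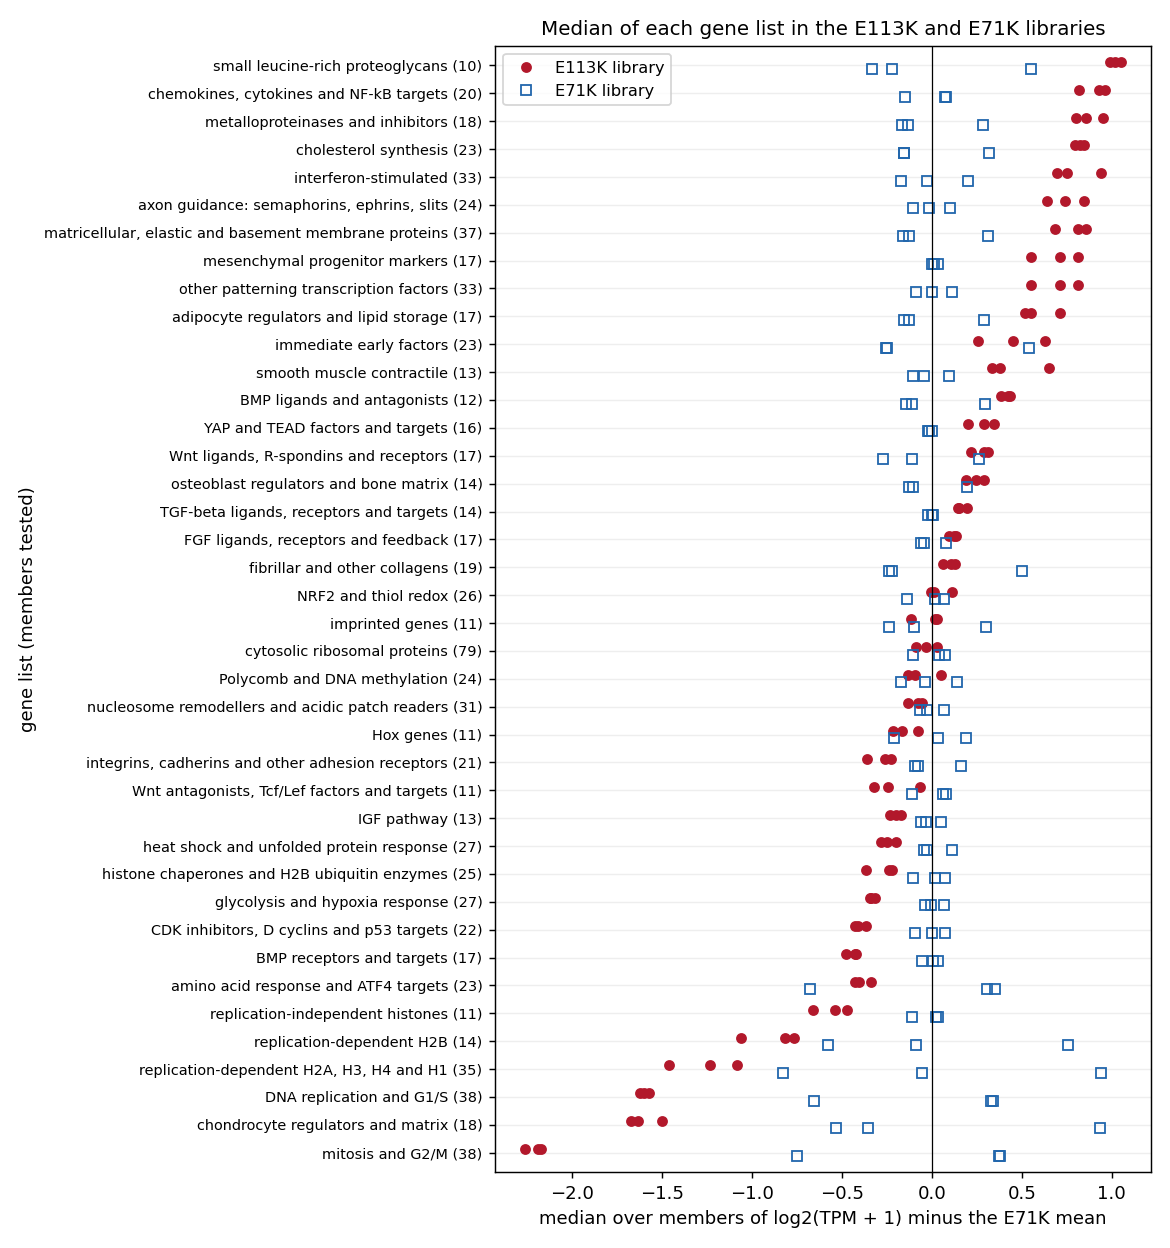
Median over the members of each gene list (rows, with the number of members tested) of log2(TPM + 1) minus the E71K mean, for each E113K library (filled circles) and E71K library (open squares); lists with at least 10 tested members are shown, in order of their median fold change. The E113K circles of the mitotic list are lowest, at -2.26 to -2.17, and one E71K square (replicate 3) stands apart at the mitotic list (-0.75) and at the chondrocyte list (0.93).

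Differentiation genes went in opposite directions for cartilage and fat. Of 18 chondrocyte genes tested, 11 fell and 2 rose (72.2% called against 58.1% of all genes, median -1.60). Sox9, the master regulator of chondrogenesis, was at 80.8, 75.8 and 77.4 TPM in E113K, against 125, 151 and 226 TPM in E71K (-1.05 ± 0.18, adjusted p = 0.0001). Its partner Sox6 was at 0.0533, 0.0937 and 0.111 TPM in E113K and 8.11, 8.86 and 19.7 TPM in E71K (-3.50 ± 0.30). Col2a1, the collagen of cartilage, had 29.9, 28.0 and 27.7 TPM in E113K and 259, 264 and 517 TPM in E71K (-3.48), with a WT mean near 45.7 TPM. At each of these genes replicate 3 was the highest of E71K. Cytl1 (-3.83), Hapln1 (-3.21) and Fgfr3 (-2.92) fell too, Matn2 (1.85) and Epyc (1.09) rose, and Acan was below the limit of level. Without E71K replicate 3, 9 of the 18 fell, 3 rose and the median was -0.91.

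Adipocyte regulators moved the other way: 12 of 17 rose and none fell (70.6% called against 58.1% of all genes), with a median of 0.60. Pparg, the nuclear receptor that drives adipogenesis, was at 82.2, 82.8 and 93.3 TPM in E113K, against 4.30, 5.91 and 4.67 TPM in E71K (3.88 ± 0.12, adjusted p = 3.04e-13), with a WT mean of 21.5 TPM. Plin4, a lipid-droplet coat protein, had 127, 125 and 136 TPM in E113K and 16.9, 17.8 and 36.6 TPM in E71K (2.48 ± 0.22). E113K lay above and E71K below WT for both genes, the WT mean of Plin4 being 76.7 TPM. Fabp4 (7.70 against 0.618 TPM, 2.45), Lipe (1.58), Cebpd (1.5) and Scd1 (0.98) rose. Genes of mature fat cells such as Adipoq, Plin1 and Cidec did not reach a mean of 1 TPM, and Lpl (-0.07) and Plin2 (-0.07) were not called.

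Bone and muscle lists were mixed, at 78.6% called for osteoblast, 76.9% for smooth-muscle and 83.3% for skeletal-muscle genes, against 58.1% of all genes. Of 14 osteoblast genes 7 rose and 4 fell; Runx2, their master regulator, was at 26.5, 27.9 and 23.5 TPM in E113K, against 9.94, 9.51 and 21.2 TPM in E71K (0.98 ± 0.28, adjusted p = 0.0071). Phex, an endopeptidase of osteocytes and osteoblasts, was at 20.5, 21.9 and 21.8 TPM in E113K and 0.320, 0.278 and 0.389 TPM in E71K (4.08 ± 0.20). Dlx5, a homeobox factor upstream of bone formation, fell to 13 TPM on average in E113K, against 40.0 TPM in E71K (-1.5). Col1a1, the main collagen of bone and fibroblasts, was at 1510, 1500 and 1530 TPM in E113K and 1780, 1790 and 1440 TPM in E71K and was not called (-0.13 ± 0.13, adjusted p = 0.38), but it was called without the 4 libraries of the series that lay apart (-0.24, adjusted p = 0.0124). Of 13 smooth-muscle contractile genes 7 rose and 3 fell: Acta2, smooth-muscle actin, was at 343, 347 and 353 TPM in E113K, against 152, 158 and 198 TPM in E71K (1.04 ± 0.10), and Tpm1 rose by 1.52, whereas Smtn fell by 1.35. Of 6 skeletal-muscle genes tested, Pax3 (2.38) and Tnnt1 (1.54) rose, and Tnnt2 (-4.94) and Tnni2 (-1.90) were among 3 that fell. Tnnt2, cardiac troponin T, was at 1.84, 1.84 and 1.16 TPM in E113K and at 175, 170 and 15.8 TPM in E71K; its log2 fold change without replicate 3 was -6.07.

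Progenitor markers were for the most part higher. Of 17 tested, 11 rose and 3 fell (82.4% called against 58.1% of all genes, median 0.69). Apart from Thy1, Eng, the TGF-beta co-receptor CD105, was at 19.4, 19.5 and 22.1 TPM in E113K, against 1.23, 1.12 and 1.45 TPM in E71K (3.24 ± 0.12). Vcam1, an adhesion molecule, was at 167, 180 and 186 TPM in E113K, against 24.3, 25.8 and 103 TPM in E71K (2.11). Without E71K replicate 3 its log2 fold change was 2.78. Nes, the intermediate filament nestin, went the other way (0.648, 0.718 and 0.832 TPM in E113K, 10.2, 10.6 and 6.29 TPM in E71K, -2.51). Gli1 fell too (-1.27). The abundant marker Ly6a was also lower, at 980, 1040 and 1110 TPM in E113K, against 1990, 2130 and 1130 TPM in E71K. The summed level of the whole list overlapped between the groups, at 7430 to 7710 TPM in E113K and 6540 to 8490 TPM in E71K. Other cell types gave little signal: 10 endothelial markers summed to 1.80 to 2.28 TPM in E113K and 5.33 to 8.85 TPM in E71K, with Kdr at or below 0.0340 TPM, and 11 haematopoietic markers summed to 12.7 to 12.8 TPM in E113K and 26.9 to 51.0 TPM in E71K, with Adgre1, Cd3e and Tyrobp at 0 in all 6. Lyz2, lysozyme, made up much of the sum in E71K (0.329, 0.581 and 0.275 TPM in E113K, 14.2, 17.1 and 36.5 TPM in E71K). Neural markers summed to 162 to 205 TPM in E113K and 234 to 398 TPM in E71K, mostly Ncam1, S100b and Map2, and Tubb3 (-2.22) and Gap43 (-1.61) fell. Whether other cell types contributed to the differences was not tested.

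Genes of the extracellular matrix differed in both directions. Of 10 small leucine-rich proteoglycans, 6 rose and 3 fell (90% called against 58.1% of all genes). Ogn, osteoglycin, was at 963, 1120 and 1220 TPM in E113K, against 25.7, 28.1 and 201 TPM in E71K (4.34 ± 0.56), and Aspn at 486, 546 and 619 TPM, against 2.18, 2.14 and 16.1 TPM. These neighbours of chromosome 13 were both highest in replicate 3 within E71K. Fmod, fibromodulin, was the reverse (0.204, 0.144 and 0.0852 TPM in E113K, 30.5, 33.2 and 59.8 TPM in E71K), as was Prelp (24.9 against 224 TPM on average, -3.12). Of 37 matricellular, elastic and basement-membrane genes, 18 rose and 6 fell (64.9% called): Thbs2, thrombospondin 2, had 138, 153 and 164 TPM in E113K and 3.79, 4.08 and 5.30 TPM in E71K (4.83 ± 0.14), Nov (CCN3) had 778, 765 and 704 TPM in E113K and 31.4, 32.3 and 35.7 TPM in E71K (4.46 ± 0.26), and Nid1, nidogen, rose by 3.74, while Mfap5 fell by 2.83. Of 18 metalloproteinases and inhibitors, 12 rose and 2 fell (77.8% called). Adamts1, an aggrecan- and versican-cleaving protease, was at 838, 910 and 931 TPM in E113K, against 38.4, 38.2 and 43.4 TPM in E71K (4.45 ± 0.28), its neighbour on chromosome 16 Adamts5 rose by 2.68, and Mmp14, the membrane-bound activator of Mmp2, averaged 819 TPM in E113K and 235 TPM in E71K (1.98). The genes that fell were the inhibitors Timp1 (-0.64) and Timp3 (-0.36). Of 19 collagens, 7 rose, led by Col18a1 (2.4) and Col8a2 (2.18), and 4 fell, a share called (57.9%) near the background. Of 21 adhesion receptors 8 rose and 8 fell (76.2% called), with Cdh11 (2.46) the largest rise and Itga11 (-2.39) the largest fall.

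In the BMP pathway, 6 of 12 ligands and antagonists rose and none fell (50% called): besides Grem1, Bmper was at 14.8, 13.8 and 16 TPM in E113K and 1.59, 1.52 and 2.28 TPM in E71K (2.51 ± 0.13), and Fstl1 (1.34) and Chrd, chordin (1.25), both rose; all of these but Fstl1 are known chiefly as secreted modulators that bind BMPs. Of 17 receptors and targets, 10 fell and 2 rose (70.6% called, against 58.1% of all genes). The Id genes are direct BMP targets; Id4 was at 0.251, 0 and 0.0788 TPM in E113K, against 4.58, 5.56 and 5.67 TPM in E71K (-2.5 ± 0.17), and Id2 averaged 64.0 TPM in E113K and 157 TPM in E71K (-1.28). Atoh8, another target, fell by 1.94. With TPM as deposited, 5 of the 17 fell.

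Other pathways had members on both sides. Of 17 Wnt ligands, R-spondins and receptors 8 rose and 4 fell (70.6% called against 58.1% of all genes). Rspo2, an enhancer of Wnt signalling, was at 377, 396 and 378 TPM in E113K and 47.5, 51.7 and 155 TPM in E71K (2.38 ± 0.42), and Wnt5a, a ligand of the non-canonical branch, fell (-1.54). The inhibitors Dkk2 (15.7 against 0.0423 TPM on average, 4.01) and Sfrp1 (2.68) rose. In Hedgehog signalling, the pathway's own feedback targets Ptch1 (8.15, 5.51 and 8.54 TPM in E113K, 51.7, 48.4 and 40.8 TPM in E71K, -2.53 ± 0.17) and Gli1 (-1.27) fell, and Gas1, a co-receptor, rose (1.26). Gas1 was at 629 TPM in E71K replicate 3 against 197 and 201 TPM in replicates 1 and 2, and it was not called without replicate 1 (adjusted p = 0.0701) or without replicate 2 (adjusted p = 0.0693). Fgf10 rose (2.04) and Fgfr3 (-2.92) and Fgfr2 (-1.57) fell. Tgfbr2, the type II TGF-beta receptor (1.64), Smad3 (1.4) and Pmepa1 (1.71) rose, while Ctgf, a shared TGF-beta and YAP target, fell (-2.09). Igf1 was at 21, 23.5 and 16.7 TPM in E113K, against 0.755, 1.36 and 4.31 TPM in E71K (2.92 ± 0.59). Of 24 semaphorins, ephrins, slits and their receptors, 15 rose and 7 fell (91.7% called against 58.1% of all genes); Sema3a (3.20) and Efnb2 (2.29) rose, and Sema3c (-3.22) and Plxna4 (-2.47) fell.

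Inflammatory and interferon genes were higher where they differed, with few exceptions. Of 20 chemokines, cytokines and NF-kB targets 12 rose and 1 fell (65% called against 58.1% of all genes). Their median was 0.91 (0.60 without E71K replicate 3). Cxcl5, a neutrophil chemokine, was at 19.3, 19.2 and 22.7 TPM in E113K and 0.973, 0.610 and 0.823 TPM in E71K (3.57 ± 0.21), and Il1rn, the interleukin-1 receptor antagonist, rose by 2.56. Ccl5 was the one that fell (2.80 against 25.4 TPM on average, -2.83). Of 33 interferon-stimulated genes 17 rose and none fell, against 27.1% higher among all genes. Ifit3 was at 232, 256 and 283 TPM in E113K, against 44.4, 53.5 and 96.7 TPM in E71K (2.05 ± 0.31, adjusted p = 3.5e-05). Oasl2 (2.13), the immunity-related GTPase Ifi47 (2.23), the antigen-presenting molecules H2-D1 (1.82) and H2-K1 (1.43), and Irf9 (1.51), the DNA-binding subunit of the interferon-activated complex, rose too. Irf1 (-0.02) and Isg15 (0.67) were not called. The core of the ISRE, the element that this complex binds (GAAA, any 2 bases and GAAA again, both strands), stood in 13 of 26 interferon promoters with a sequence (50%), in 3.04% of all promoters and in 2.65% of those of tested genes. Ifit3, which holds a pair of them at chr19:34583279-34583528 (plus strand, GRCm38.p6, from RefSeq), is shown with both in capitals, read as the complement strand.
Ifit3 promoter: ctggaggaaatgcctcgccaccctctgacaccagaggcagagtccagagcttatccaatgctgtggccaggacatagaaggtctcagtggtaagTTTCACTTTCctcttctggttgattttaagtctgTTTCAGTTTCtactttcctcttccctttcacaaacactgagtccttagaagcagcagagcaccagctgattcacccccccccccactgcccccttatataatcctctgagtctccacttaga

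Cholesterol synthesis was higher almost throughout. Of 23 genes 20 rose and none fell (87.0% higher against 27.1% of all genes, median 0.83). Insig1, the feedback inhibitor of the pathway and itself a target of the transcription factor SREBP2, was at 236, 251 and 243 TPM in E113K, against 31.7, 31.9 and 70.0 TPM in E71K (2.53 ± 0.29, adjusted p = 1.66e-06). Tm7sf2 (1.80), Msmo1 (1.41) and Nsdhl (1.38), enzymes of the later steps, rose, whereas Srebf2, the gene for SREBP2, was at the same mean level in both groups (133 and 135 TPM, 0.01) and was not called. Hmgcs1, an enzyme of the early steps, was at 229, 258 and 249 TPM in E113K and 100, 106 and 154 TPM in E71K (1.05 ± 0.24, adjusted p = 0.00122). Its promoter was the one among 16 with a sequence that held the sterol element searched (TCACNCCAC, both strands; 1.04% of all promoters, 0.881% of those of tested genes). It lies at chr13:119690101-119690350 on the plus strand (GRCm38.p6, from RefSeq), with the element in capitals.
Hmgcs1 promoter: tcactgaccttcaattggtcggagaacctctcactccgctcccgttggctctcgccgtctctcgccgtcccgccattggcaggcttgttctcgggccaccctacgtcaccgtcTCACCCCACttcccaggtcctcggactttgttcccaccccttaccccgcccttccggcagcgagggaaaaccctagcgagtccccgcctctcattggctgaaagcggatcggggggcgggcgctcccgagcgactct

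Among other metabolic and stress genes, glycolysis and hypoxia genes were lower for 15 of 27 and higher for 4. That is 70.4% called, against 58.1% of all genes. The higher ones included Adm, adrenomedullin, which was at 90.3, 86.7 and 91.8 TPM in E113K and 7.96, 6.21 and 10.3 TPM in E71K (3.33 ± 0.15). Without E71K replicate 3, 7 glycolysis and hypoxia genes were higher. Amino-acid response genes fell for 10 of 23 and rose for 4 (60.9% called, near the background), with Asns, asparagine synthetase, at 82.9, 86.3 and 84.4 TPM in E113K against 315, 301 and 132 TPM in E71K (-1.45 ± 0.25); without E71K replicate 3 the numbers were 17 and 2. Of 79 cytosolic ribosomal protein genes 18 rose and 18 fell, none by 2-fold; with TPM as deposited 23 rose and 2 fell, so no direction is given for them. Nfe2l2, the redox regulator NRF2, rose (1.65), its target Gclm fell (-1.57) and Gsta4 rose (1.90). The immediate early genes Zfp36 (2.32), Egr1 (1.80) and Nr4a1 (1.83) were higher, but not once E71K replicate 1 or 2 was left out (adjusted p of 0.0643 to 0.0828). Replicate 3 of E71K was the nearest to E113K: Zfp36 was at 92.5, 91.6 and 91.3 TPM in E113K and 9.05, 9.28 and 61.7 TPM in E71K.

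Of 33 patterning transcription factors outside the Hox clusters, 22 rose and 2 fell (72.7% called against 58.1% of all genes, median 0.69). Osr2, a factor of limb and palate, was at 47.7, 48.6 and 52.7 TPM in E113K, against 1.10, 0.710 and 1.07 TPM in E71K (4.70 ± 0.33), and Tbx1, a factor of the pharyngeal arches, at 34.9, 38.1 and 33.2 TPM, against 2.45, 3.16 and 4.06 TPM (3.12 ± 0.11). Pax3 (2.38) and Emx2 (1.57) rose as well. Of 11 Hox genes tested, 1 rose and 4 fell, a share called (45.5%) below the background. Hoxc9 was listed at 0 in all E113K libraries and at 5.03, 5.57 and 3.48 TPM in E71K, Hoxb6 likewise at 0 in all E113K libraries and at 2.01, 3.01 and 2.60 TPM in E71K, and Hoxa5 rose (0.80). Among imprinted genes, Ndn, necdin, was listed at 0 in every E113K library and at 19, 20.2 and 29.9 TPM in E71K, its neighbour on chromosome 7 Peg12 fell (-2.35), and Sgce, epsilon-sarcoglycan, was at 3.00, 3.31 and 3.17 TPM in E113K and listed at 0 in every E71K library.

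The same residues with glutamine served as a second pair, in which E113Q replicate 3 and E71Q replicate 1 stood apart from their mates. Between E113Q and E71Q, 4265 genes differed (35.8%), and 6899 without the 4 libraries of the series that lay apart from their groups (E71K replicate 3, E71Q replicate 1, E76K replicate 3 and E113Q replicate 3). The lysine difference (E113K minus E71K) departed from the glutamine difference (E113Q minus E71Q) for 5607 genes (47%). This was tested as an interaction in the fit of all 21 libraries. With only the 12 libraries of these groups, the interaction was called for 4606 genes. Of the 6929 genes called between the lysine mutants 4502 were among the 5607, and for 3968 of these the lysine difference was the farther from 0. Choosing genes by their call in the lysine pair favours that outcome, and no such count was made for genes called with glutamine. In both pairs, 1933 genes were called in the same direction and 899 in opposite directions. For mitotic genes the median was 0.90 with glutamine, against -2.22 with lysine, and the interaction was called for 37 of 38, while 4 were higher and 1 lower in E113Q than in E71Q. Relative to the E71Q mean, the library medians of this list were 1.48, 1.47 and -0.24 in E113Q, and 0.43, -0.28 and -0.14 in E71Q. Replicate 3 of E113Q thus lay within the range of E71Q. In fits of the lists added after the data were seen, 37 mitotic genes were higher without it and 13 without E71Q replicate 1. Replication genes had a glutamine median of 0.50 with 9 higher and 1 lower (29 and 1 without E113Q replicate 3), and the interaction was called for 37 of 38. Cholesterol genes were in the opposite order with glutamine: 21 of 23 were lower in E113Q than in E71Q (median -0.90), none was higher, and 22 of 23 had a called interaction. Leaving out either library gave 21 or 22 lower cholesterol genes. Adipocyte genes had 1 higher and 8 lower with glutamine and 14 of 17 interactions. Interferon genes were higher where called in both pairs (18 higher and none lower with glutamine, median 0.70), with the interaction called for 8 of 33 and, without the 4 libraries apart, for 23, and chondrocyte genes were lower with glutamine too (12 of 18, median -1.64), with 7 interactions, or 15 without those libraries.

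**Figure D3:**
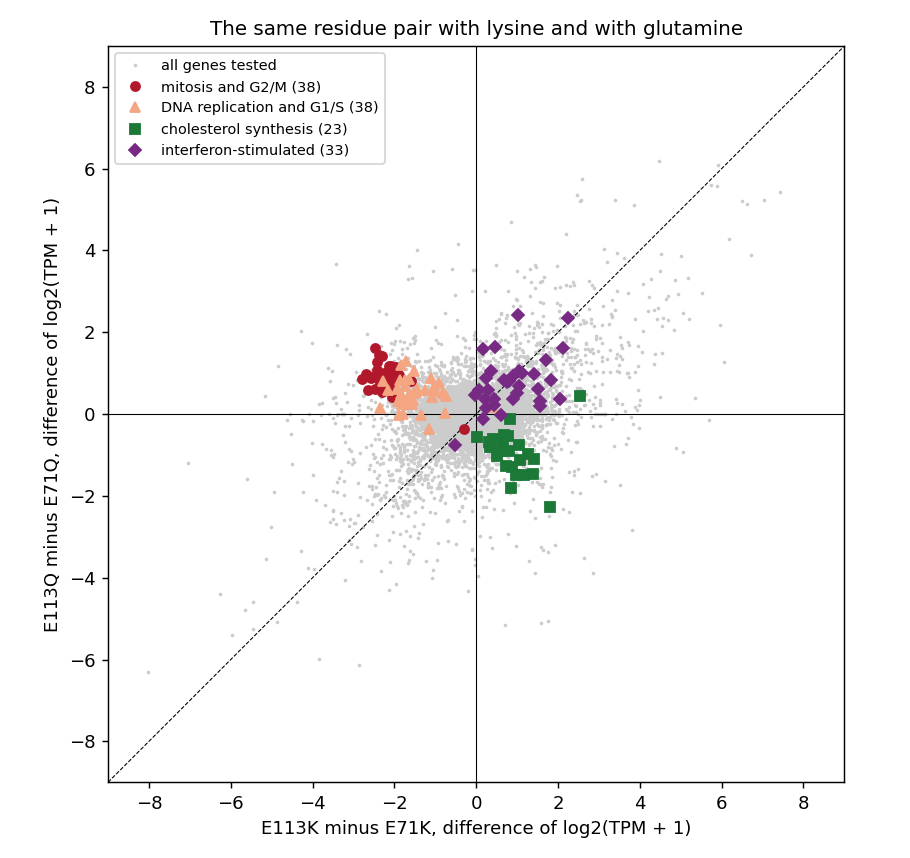
Difference of log2(TPM + 1) between E113K and E71K (horizontal axis) and between E113Q and E71Q (vertical axis) for each tested gene (grey), with 4 gene lists marked and a dashed line of equal differences. Mitotic and replication genes lie left of 0 (but for E2f1) and mostly above it, cholesterol genes right of 0 and mostly below it, and interferon genes mostly in the upper right part.

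Single genes showed the largest departures between the pairs. Ptgis, prostacyclin synthase, was at 51.6, 44.0 and 45.1 TPM in E113K and 0.627, 0.307 and 0.372 TPM in E71K (5.07 ± 0.13), whereas the glutamine difference was -0.94 and the interaction 6.0 (adjusted p = 2.13e-12). Hvcn1, a proton channel, had 35.7, 44.7 and 35.3 TPM in E113K and 0.125, 0.104 and 0.890 TPM in E71K, with an interaction of 5.71. Mgst1, a microsomal glutathione transferase, rose by 1.44 with lysine, while its glutamine difference was -3.88 (interaction 5.32). Pdlim1, an actinin-binding protein, was at 0.0705, 0.176 and 0.208 TPM in E113K and 24.6, 21.8 and 17.8 TPM in E71K, against a glutamine difference of 2.02 (interaction -6.29, adjusted p = 1e-11). Ldb2 (interaction -6.0), Tmtc4 (-5.85), Pxdc1 (-5.76) and, on the positive side, Ly6e (4.95) complete the set. In contrast, the differences of Thy1 (5.88 with lysine, 5.58 with glutamine), Rhox5 (-5.45 and -5.26), Arl6ip1 (5.90 and 6.09) and Pax3 (2.38 and 2.42) were close in both pairs and their interactions were not called.

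Differences were unevenly spread over the chromosomes, a pattern noted after the values were seen. On chromosome 16, 50.6% of 385 genes were higher and 12.7% lower (median log2 fold change 0.35), and on chromosome 2, 50.8% of 928 were higher and 14.7% lower (0.30). The reverse held on chromosome 6, with 13.3% higher and 53.6% lower (-0.36), chromosome 11, with 14% and 49.8% (-0.30), chromosome 1, with 15% and 45.3% (-0.25), and chromosomes 10 (-0.21) and 15 (-0.19). Every E113K library median lay above every E71K library median on 3 of 20 chromosomes and below it on 6. On chromosome 16 the medians relative to the E71K mean were 0.30, 0.35 and 0.37 in E113K, against -0.06, -0.02 and 0.09 in E71K. Against WT, chromosome 16 had a median of 0.31 in E113K and -0.09 in E71K, and chromosome 6 one of 0.06 in E113K and 0.35 in E71K, so that the side that departed from WT was not the same throughout. With the values of each library centred by chromosome, an alternative added after the data were seen, 6781 genes were called, 5831 of them among the 6929, and 4 of the shared genes changed sign.

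**Figure D4:**
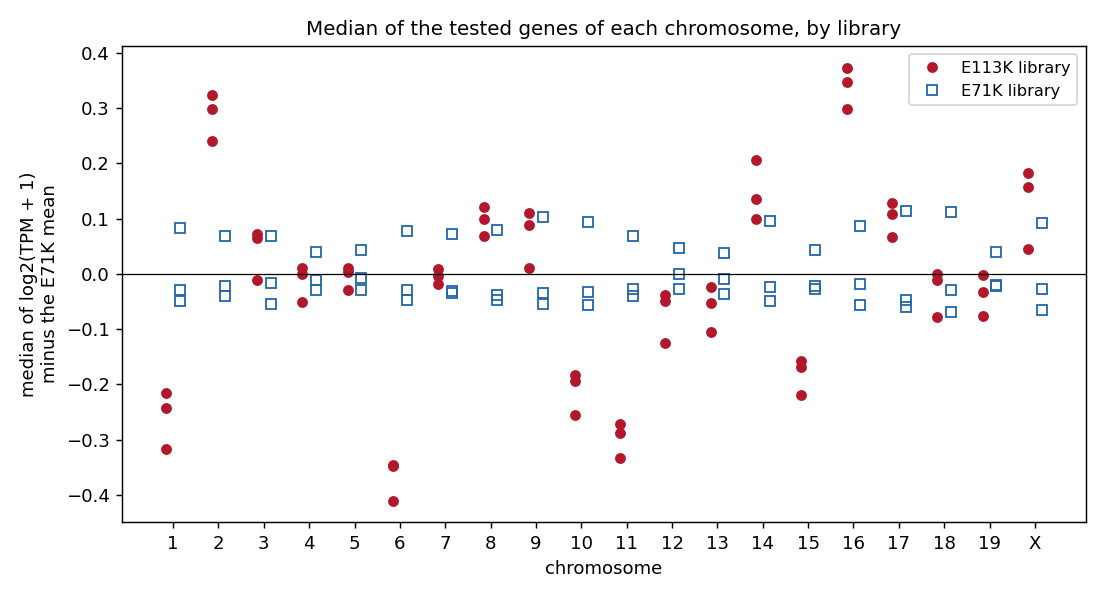
Median over the tested genes of each chromosome of log2(TPM + 1) minus the E71K mean (vertical axis) for each E113K library (filled circles) and E71K library (open squares). The E113K medians of chromosomes 2 and 16 lie at 0.24 to 0.37, and those of chromosomes 6 and 11 at -0.41 to -0.27, outside the range of the E71K libraries, while those of chromosome 7 lie within it.

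Chromosome 14 held both directions. Between 40 and 60 Mb, 65.5% of 139 genes were higher and 11.5% lower (median 0.68); between 120 Mb and the end, 14 of 15 were lower and none higher (median -2.48, and -2.59 against WT in E113K, 0.17 in E71K). In the stretch from Dock9 to Itgbl1 (chr14:121538365-123978865, GRCm38), 10 genes were tested. Dock9, an exchange factor for Cdc42, was at 0.0521, 0.0596 and 0.0817 TPM in E113K, against 17.9, 16.3 and 14.1 TPM in E71K (-4.00 ± 0.13, adjusted p = 3.94e-13). Ubac2, a membrane protein of the endoplasmic reticulum, was at 0.0929, 0.0986 and 0.175 TPM in E113K and 24.6, 26.6 and 28.8 TPM in E71K (-4.62 ± 0.08), and Tmtc4, a mannosyltransferase, at 0.0881, 0.0547 and 0.0553 TPM, against 159, 71.9 and 239 TPM. Clybl (0.235 against 28.6 TPM on average), Pcca, a subunit of propionyl-CoA carboxylase (0.563 against 15 TPM), Ggact (0.968 against 25.3 TPM) and Itgbl1 (0.696 against 32.2 TPM) were likewise near 0 in E113K. WT means of these genes ran from 8.03 TPM for Pcca to 73.9 TPM for Tmtc4, so it was E113K that was far from WT. E76K lay between E113K and E71K here: Ubac2 was at 8.53, 9.24 and 10.1 TPM and Dock9 at 2.66, 3.29 and 3.31 TPM in the E76K libraries. Tm9sf2, between Ubac2 and Clybl, was not near 0: it stood at 32.1, 34.6 and 35.2 TPM in E113K, against 89.1, 96.8 and 111 TPM in E71K (-1.51 ± 0.11), and A330035P11Rik beside it was not called (-0.37). Between E113Q and E71Q, Dock9 (-1.49, adjusted p = 1.83e-07) and Tmtc4 (-1.20, adjusted p = 0.0332) were lower in E113Q, whereas none of Ubac2, Clybl, Pcca, Ggact, Itgbl1 and Tm9sf2 was called.

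**Figure D5:**
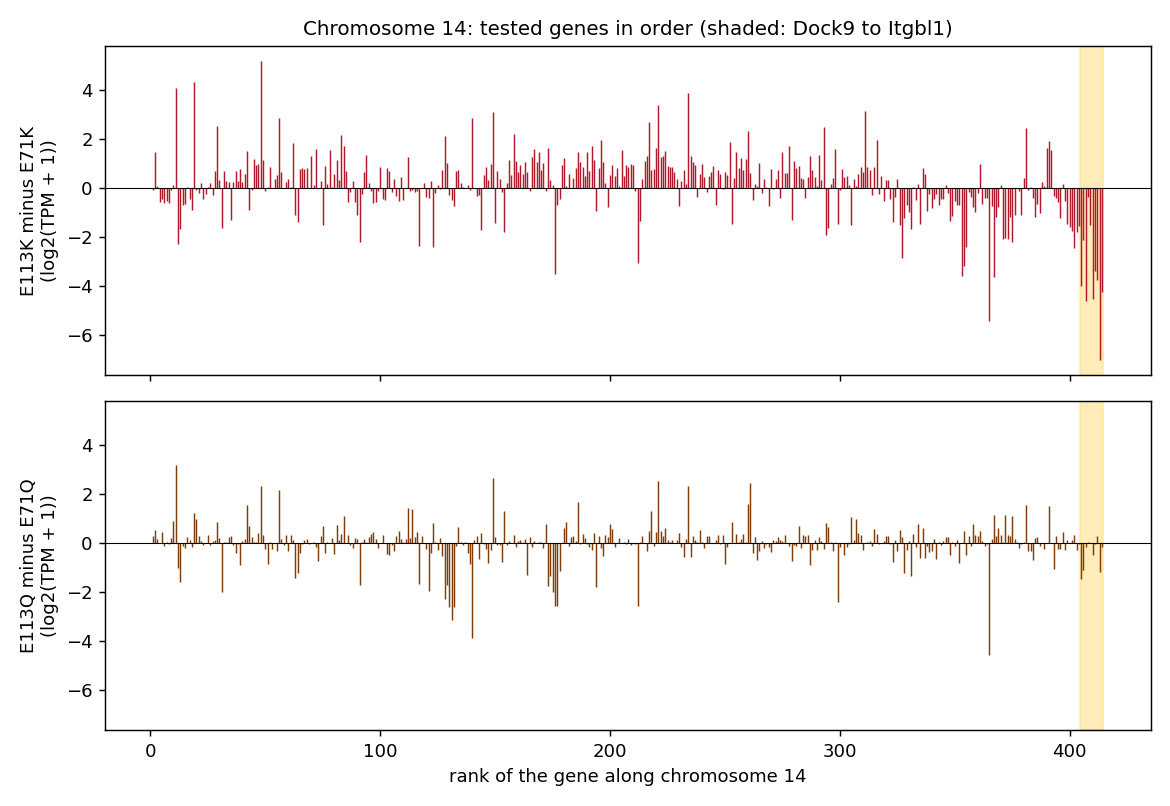
Differences of log2(TPM + 1) of the tested genes of chromosome 14 in order of position (horizontal axis, rank), for E113K minus E71K (upper panel) and E113Q minus E71Q (lower panel), with the stretch from Dock9 to Itgbl1 shaded. The last genes of the chromosome are lower in the upper panel by up to 7.05, while in the lower panel those of the shaded stretch go no lower than -1.49.

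Neighbouring genes of at least 2-fold difference in the same direction formed 7 runs of 5 or more genes, and without E71K replicate 1 the number was 4. On chromosome 14, Mzt1 to Klf12 (6 genes), Uggt2 to Ubac2 (9 genes) and Tm9sf2 to Itgbl1 (6 genes) were lower. Psme1 to Irf9 (5 genes) was higher there. At several genes of the lower runs E76K was near E113K. Mbnl2 averaged 16.4 TPM in E76K and 19.2 TPM in E113K, Rap2a 5.64 and 5.06 TPM, and Stk24 19.7 and 17 TPM. Tm9sf2 averaged 41.1 TPM in E76K and 34 TPM in E113K. Others, such as Clybl (12.2 and 0.235 TPM) and Ggact (18 and 0.968 TPM), were well above E113K in E76K. The run on chromosome 6 consisted of the complement proteases C1ra, C1s1, C1rb and C1s2 with Lpcat3, all higher; C1s1 was at 253, 256 and 254 TPM in E113K, against 7.89, 9.34 and 61.1 TPM in E71K (3.84 ± 0.57). On chromosome 16 the receptors for interferons and interleukin-10, Ifnar2, Il10rb, Ifnar1 and Ifngr2, rose together with Tmem50b; Ifngr2 was at 80.7, 82.0 and 83.2 TPM in E113K and 19.7, 20.4 and 29.8 TPM in E71K (1.80 ± 0.15). The run on chromosome 17 joined H2-D1 with H2-Q1, H2-Q2, H2-Q4 and H2-Q7, class I genes so alike in sequence that reads may be shared among them. For this run the WT means exceeded those of both mutants, at 522 TPM for H2-D1 against 380 TPM in E113K and 107 TPM in E71K.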

How the data were processed

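RNA of 7 groups of 3 libraries of C3H/10T1/2 cells was measured, per the labels with an RNeasy kit and NEBNext Ultra II libraries. The authors deposited TPM per library and gene; Salmon, DESeq and featureCounts 1.4.4 appear beside build mm10 in the submitters' processing notes, without a statement of which made these values. Sequencing depth is not given in the sources used here, so no counting interval or limit for a 0 was computed.

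Genes were chosen on the deposited TPM; Mir6236, which took up to 30.6% of a library, was left out and TPM restated to the full sum outside it. A model with 1 mean per group was fitted to log2(TPM + 1) of all 21 libraries, sharing 14 residual degrees of freedom, with limma 3.58.1 in R 4.3.3 and an intensity trend. P-values were adjusted by Benjamini-Hochberg within each comparison. Of 11921 tested genes 11911 were placed on RefSeq's GRCm38.p6 by Entrez identifier. Named genes are the 14 largest rises and 14 largest falls (mean of at least 5 TPM, no overlap, no predicted genes or small RNAs), up to 4 called members of each of 48 lists with the largest change, 7 followed genes, the 4 largest interactions each way and runs of neighbours; other genes were picked after their values were seen. The members and lists were chosen with earlier results of these data known. Libraries of 11921 genes were also simulated, with known changes in a small subset that left out genes at low levels. The model called 58.2% of 1.5-fold changes, 86.6% of 2-fold ones and 95.5% of 4-fold ones, besides 11 unchanged genes. The simulation gave each gene 1 normal spread for all groups, whereas the median SD was 0.0844 in E113K and 0.197 in E71K. These rates may therefore not hold for the real libraries. Alternatives changed the scaling, pseudocount, filter, moderation, weights, block and libraries. A few genes are not reported here.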

Additional observations from a re-analysis of the deposited data

Results flagged for a closer look

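The difference between E113K and E71K departed from that between E113Q and E71Q, by an interaction term in limma, for 5607 of the tested genes. Among the 14 largest rises, the 14 largest falls, the 7 followed genes and the 8 genes with the largest interactions, the interaction (lysine difference minus glutamine difference, log2 scale) was positive for Ptgis (6.0), Hvcn1 (5.71), Mgst1 (5.32), Ly6e (4.95), Gxylt2 (4.77), Plac8 (3.77), Pparg (3.71), Plau (2.86), Hdac11 (2.84), Apod (2.57), Anpep (1.99), Renbp (1.89), Grem1 (1.80) and Cdo1 (1.29). It was negative for Pdlim1 (-6.29), Ldb2 (-6.0), Tmtc4 (-5.85), Pxdc1 (-5.76), Ndn (-4.55), Ubac2 (-4.48), Cyp26b1 (-4.01), Mki67 (-3.18), Tnnt2 (-3.03), Gas7 (-2.25), Col9a1 (-1.88) and Col1a1 (-0.92). For Anpep, Grem1, Cdo1, Renbp and Col9a1 both pairs differed in the same direction and the lysine pair by more, whereas for Ptgis, Mgst1, Pdlim1, Ldb2 and Pxdc1 the pairs differed in opposite directions.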

How the results depend on the processing

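Direction and call of 230 of the 246 named genes held under every alternative that kept them in the test (195 have a mean of at least 5 TPM), and no called gene reversed. The number called between E113K and E71K ran from 5776 with TPM as deposited to 8614 without 4 libraries that lay apart from their groups, and from 6064 to 7547 with 1 library left out. With TPM as deposited, 60.3% of called genes were higher, the median log2 fold change was 0.136 and 2769 genes were called between E113Q and E71Q. That last count was 2419 with only the libraries compared and 6899 without the 4 libraries apart. At a pseudocount of 5, 1201 genes differed at least 2-fold and 3 runs of neighbours were left. Leaving out 1 library gave 1885 to 2474 genes of at least 2-fold, 43.5% to 51.1% higher, medians of -0.0426 to 0.0325, 4 to 9 runs (4 without E71K replicate 1), 4959 to 6631 interactions and 3333 to 4897 genes between E113Q and E71Q. List medians changed sign in at least 1 alternative for 14 of 48 lists, among them osteoblast genes (-0.0248 without a filter), adhesion receptors, the IGF pathway and Hox genes (0.081, 0.248 and 0.238 at a mean of at least 5 TPM), the Notch pathway (-0.139 without the 4 libraries, and -0.139 to 0.373 with 1 library left out), Wnt antagonists (-0.348 to 0.219 with 1 library left out, the highest without E71K replicate 2) and, with centring by chromosome, haematopoietic markers, the IGF pathway and Hox genes (0.0429, 0.121 and 0.213). Medians near 0 turned positive with TPM as deposited for Hedgehog, Polycomb, remodeller, imprinted and ribosomal genes (0.131, 0.0895, 0.107, 0.0648 and 0.132), and that of NRF2 genes was -0.00985 with quantile normalization; the cause was not tested. The labels do not say whether the replicate numbers pair the samples. Same-numbered libraries of both groups had deviations correlated at -0.023, 0.0653 and -0.0333, which with 3 libraries per group cannot decide it. With the replicate block 7252 genes were called between E113K and E71K, with 6077 interactions and 4807 genes between E113Q and E71Q. Depth is unknown, so its limits cannot be stated.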
